A study of Mus musculus with 2 samples.

Results

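The cytotoxic granule genes described here are Gzma, Gzmb, Gzmc, Prf1, Nkg7, Ctsw and Fasl, 7 of the 32285 genes counted in single thymocytes sorted as invariant natural killer T (iNKT) cells. They were chosen by name, for the killing machinery of lymphocytes, and not by a threshold on their levels. Thymi of Ctrl mice and of mice lacking the scaffold protein Kidins220 in T cells (T-KO) were sorted into stage 0 cells (TCRβ+ CD1dt+ CD24+ NK1.1-) and stage 3 cells (TCRβ+ CD1dt+ NK1.1+ CD24- CD44+), where CD1dt is the CD1d tetramer that binds the iNKT receptor. Each of the 8 populations, 2 for each combination of stage and genotype, came from the pooled thymi of 4 mice. Per the methods, thymi were pooled by genotype and both stages were sorted from them, 2 times in parallel. The stage 0 and stage 3 populations of a pool thus came from the same mice. Each population was stained with its own hashtag antibody and pooled with the others into 1 library of 5′ mRNA ends and 1 library of hashtags. T-KO mice carried a floxed Kidins220 gene and Cre under the proximal Lck promoter, which acts in thymocytes from an early stage but, per the study, very little in γδ T cells. All mice were on a C57BL/6 background. The methods give a wide range of ages over all mice of the study but not the age of the mice pooled here, nor the alleles of the Ctrl mice.

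The labels number the hashtags 1 to 8, whereas the table names its hashtag rows 11 to 18, and no source used here pairs the one with the other. The 8 rows were therefore described 1 by 1, without a stage or genotype, and no row served as a replicate of another, so that no test between groups was made. A barcode was kept with at least 1000 genes, at most 5% mitochondrial UMIs and at least 80% of at least 10 hashtag UMIs on 1 row. This left 10007 cells of 16179 barcodes, 583 to 1601 in each of the odd rows (11, 13, 15 and 17) and 577 to 2162 in each of the even rows (12, 14, 16 and 18). Rows held 2283162 to 14601545 gene UMIs, and the median cell held 6500 to 8068 UMIs in odd rows and 3258 to 3804 in even rows. Each level is the sum of a gene's UMIs in a row or group per 1000000 gene UMIs of those cells (CPM), and the intervals given are 95% exact Poisson or Clopper-Pearson intervals that cover counting error only. Where a count was 0, the limit given is the value of 3 counts in its place.

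Cytotoxic granules are secretory lysosomes that killer lymphocytes release into the contact with a target cell. Perforin opens the target membrane and granzymes, which are serine proteases stored in the granule, pass through and cleave proteins that set off cell death. Fas ligand acts on the cell surface instead and starts the death pathway through the receptor Fas, and mature iNKT cells of the NK1.1+ kind are known to share much of this equipment with natural killer (NK) cells.

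The labelled cell type was checked against its markers before the members were compared. The summed level of the stage 3 iNKT1 markers (Klrb1c, Tbx21, Il2rb, Zbtb16 and Trav11) was 1433 to 1700 CPM in even rows and 62.6 to 99.99 CPM in odd rows (5 of 5 markers listed). Trav11, the variable segment of the invariant receptor chain, reached 39.5 to 56.5 CPM in even rows but 0.205 to 1.14 CPM in odd rows, where it had 27 UMIs in all. Odd rows had the higher sums of stage 0 iNKT markers (889 to 1357 CPM against 207 to 246 CPM), of B cell markers (664 to 1534 against 233 to 272 CPM) and of myeloid markers (9552 to 27343 against 612 to 1129 CPM). The odd rows were likewise above for markers of DP thymocytes (442 to 827 against 53.6 to 69.1 CPM), γδ T cells (190.0 to 326 against 104 to 164 CPM), mast cells and basophils (23.8 to 45.3 against 2.47 to 5.69 CPM), neutrophils (9.26 to 195 against 1.31 to 2.27 CPM) and dividing cells (1550 to 2426 against 337 to 516 CPM). Markers of αβ T cells were lower in odd rows (1262 to 2633 against 3160 to 3531 CPM), and the NK and ILC1 markers overlapped (123 to 460.4 against 247 to 320 CPM). Odd-row cells were accordingly split by the first match of at least 2 Cd79a, 5 Cst3, 1 Rag1 or 2 Ikzf2 UMIs, which gave 810, 972, 418 and 1106 cells and left 943 unmatched (the rest). Even-row cells were split into 1051 with at least 4 Ccl5 UMIs, 538 with at least 2 Izumo1r UMIs and no Ccl5, and 4169 others.

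The genes lie apart in the genome except for Gzmb and Gzmc. In the GRCm38 build (GENCODE M21), Gzma spans chr13:113093825-113100981, Prf1 chr10:61297833-61304680, Nkg7 chr7:43437073-43438249, Ctsw chr19:5465043-5468507 and Fasl chr1:161780689-161788495. Gzmb (chr14:56258838-56262260) and Gzmc (chr14:56231441-56234656) belong to a cluster of closely related granzyme genes with Gzmd, Gzme, Gzmf, Gzmg and Gzmn. Reads that match several of these copies equally well could be lost or split in the counting, so the levels of Gzmb and Gzmc are uncertain to that extent. RefSeq promoter windows (GRCm38.p6, 250 bases before to 50 after the annotated start) matched 6 of the 7 members by symbol, all but Ctsw. Those of Gzma, Gzmb, Prf1 and Nkg7 are printed below because they belong to the granzyme that went its own way and to members that moved together. Capitals mark matches on either strand to GGTGTGA, the T-box core, and to TGTGGT, the Runx core, and no match of one overlapped a match of the other.
Gzma, chr13:113100932-113101231, minus strand: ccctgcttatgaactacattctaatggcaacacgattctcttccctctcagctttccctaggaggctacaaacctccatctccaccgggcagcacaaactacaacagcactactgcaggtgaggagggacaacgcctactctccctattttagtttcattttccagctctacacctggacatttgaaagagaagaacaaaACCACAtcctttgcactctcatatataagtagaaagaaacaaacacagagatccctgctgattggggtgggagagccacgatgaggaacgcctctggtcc
Gzmb, chr14:56262285-56262584, minus strand: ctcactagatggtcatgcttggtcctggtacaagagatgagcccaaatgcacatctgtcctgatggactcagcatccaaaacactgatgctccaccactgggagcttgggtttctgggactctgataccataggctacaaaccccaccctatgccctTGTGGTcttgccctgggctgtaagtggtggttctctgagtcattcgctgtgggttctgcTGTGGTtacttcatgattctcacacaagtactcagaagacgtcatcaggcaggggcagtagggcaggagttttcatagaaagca
Prf1, chr10:61297586-61297885, plus strand: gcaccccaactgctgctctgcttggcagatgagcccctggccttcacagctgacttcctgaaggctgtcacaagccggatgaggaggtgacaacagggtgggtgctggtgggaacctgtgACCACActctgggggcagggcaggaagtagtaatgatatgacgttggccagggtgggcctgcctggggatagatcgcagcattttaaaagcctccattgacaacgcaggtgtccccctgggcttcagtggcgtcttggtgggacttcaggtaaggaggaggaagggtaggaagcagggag
Nkg7, chr7:43436888-43437187, plus strand: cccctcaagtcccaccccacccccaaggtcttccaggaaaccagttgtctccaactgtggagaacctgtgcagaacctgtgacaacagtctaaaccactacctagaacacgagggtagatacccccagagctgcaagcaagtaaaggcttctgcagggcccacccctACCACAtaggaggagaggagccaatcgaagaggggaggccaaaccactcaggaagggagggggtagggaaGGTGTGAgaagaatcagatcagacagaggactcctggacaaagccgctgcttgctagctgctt
The Runx letters stood 50 bases before the start of Gzma, 93 and 34 before that of Gzmb, 130 before that of Prf1 and 83 before that of Nkg7, and the Gzmc window held them 108 and 174 bases before its start. The T-box letters stood 13 bases before the start of Nkg7. The Fasl window held neither the Runx nor the T-box letters. These starts are those of RefSeq and do not all match the GENCODE spans given above. The Gzmb window lies wholly before the GENCODE span of the gene, and the T-box letters lie inside that of Nkg7. Of 32851 RefSeq windows of this length, 16.8% held the Runx letters and 3.98% the T-box letters. A match in these windows is a description of the letters only.

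Of the 7 members, 6 lay higher in each even row than in each odd row, and Gzma did not. Across the 8754 genes with at least 10 CPM, 25.3% lay above in the same way and 35.6% below, so most of the genes measured separated the odd from the even rows in one direction or the other. No member lay below in all even rows. The fold between the median even row and the median odd row was 245 for Gzmc (30 UMIs in the odd rows), 70.1 for Gzmb, 45.9 for Fasl, 22.8 for Ctsw, 19.4 for Nkg7 and 17.9 for Prf1, and the count was 6 under each of the 17 alternative settings of the processing.

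**Figure D1:**
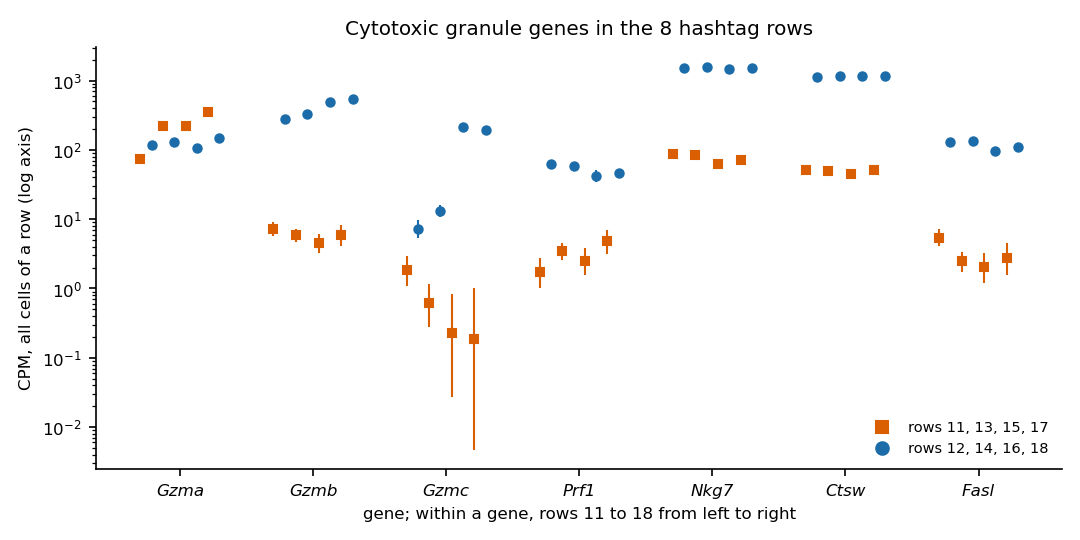
Level (CPM, log axis) of each member in hashtag rows 11 to 18, with 95% Poisson intervals. Squares are odd rows and circles are even rows, and the rows overlap for Gzma, from 73.5 to 354 CPM, while the even rows lie above the odd rows for the other members.

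Gzma encodes granzyme A, a protease that cuts after basic residues. It was present at 119, 129, 106 and 150.1 CPM in rows 12, 14, 16 and 18. In rows 11, 13, 15 and 17 it was at 73.5, 224, 219 and 354 CPM. The odd rows thus held both the lowest and the highest level, 3 of 4 lay above every even row, and the log2 ratio of the medians (with 10 CPM added) was -0.79 for even over odd rows.

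Gzmb encodes granzyme B, which cuts after aspartate and activates caspases. Its level was 278, 332, 496 and 534 CPM in rows 12, 14, 16 and 18. It was 7.29, 5.89, 4.55 and 5.93 CPM in rows 11, 13, 15 and 17. The groups of rows were far apart, and within the even rows the intervals of rows 12 (265 to 291 CPM) and 14 (319 to 346 CPM) lay below those of rows 16 (467 to 526 CPM) and 18 (514 to 555 CPM), of which the last 2 overlapped.

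Gzmc encodes granzyme C, a relative of granzyme B from the same gene cluster. In rows 12 and 14 it was at 7.27 and 13.3 CPM, but in rows 16 and 18 it was at 213 and 193 CPM. The odd rows 11, 13, 15 and 17 held 18, 9, 2 and 1 UMIs, or 1.85, 0.616, 0.228 and 0.185 CPM. All even rows lay above, yet the even rows themselves differed by more than the odd and even rows nearest to each other, which makes Gzmc the most uneven member within the even rows.

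Prf1 encodes perforin, the pore-forming protein of the granule. It was measured at 63.3, 59.0, 42.5 and 47.0 CPM in rows 12, 14, 16 and 18, against 1.74, 3.42, 2.50 and 4.81 CPM in rows 11, 13, 15 and 17. The even rows showed intervals of 57.1 to 69.9, 53.5 to 64.8, 34.5 to 51.8 and 41.1 to 53.5 CPM. Perforin thus ran against granzyme B and granzyme C within the even rows, with rows 12 and 14 the higher pair, although the intervals of rows 14 and 18 all but touched at 53.5 CPM.

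Nkg7 encodes a granule membrane protein needed for granule release. It reached 1525, 1584, 1448 and 1515 CPM in rows 12, 14, 16 and 18, and 87.4, 84.0, 62.7 and 72.4 CPM in rows 11, 13, 15 and 17. Ctsw encodes cathepsin W, a cysteine protease of cytotoxic lymphocytes. Its levels were 1124, 1146, 1155 and 1158 CPM in rows 12, 14, 16 and 18, and 50.9, 49.9, 44.7 and 51.7 CPM in rows 11, 13, 15 and 17. Both genes were thus almost level among the even rows, in contrast to the granzymes.

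Fasl encodes Fas ligand, the death ligand of the surface route. Rows 12, 14, 16 and 18 held 132, 134, 96.4 and 109 CPM. Rows 11, 13, 15 and 17 held 5.44, 2.47, 2.05 and 2.78 CPM. Fas ligand shared the order of perforin within the even rows, since the intervals of rows 12 (123 to 141 CPM) and 14 (125 to 142 CPM) lay above those of rows 16 (84.0 to 110.0 CPM) and 18 (99.8 to 119 CPM).

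Within the even rows, the member that set the cells rich in Ccl5 apart from the cells with Izumo1r but no Ccl5 was granzyme A. Ccl5 encodes a chemokine that is stored and released by cytotoxic lymphocytes, and Izumo1r encodes folate receptor 4. Gzma was 300.2, 341, 192 and 368 CPM in the Ccl5 cells of rows 12, 14, 16 and 18 and 20.8, 28.7, 30.1 and 30.0 CPM in their Izumo1r cells. The values did not overlap, and the log2 ratio was 3.33, 3.18, 2.33 and 3.24 in the 4 rows, with a median of 3.21. Gzma was the only 1 of 7 members at 2-fold or more in every row, among 18 of 7987 genes that were (0.225%), and no member was 2-fold lower, as 0.0626% of genes were. The median log2 ratio of all these genes was -0.02. Ccl5 itself set the groups and is no finding. The sum of the 6 NK and ILC1 markers moved with this split, at 318 to 662 CPM in Ccl5 cells and 76.6 to 187 CPM in Izumo1r cells. Of them Klre1 and Tyrobp gave most UMIs, at 195 to 241 and 81.9 to 313 CPM against 57.5 to 122 and 13.7 to 60.8 CPM. Ncr1 and Eomes had 49 and 5 UMIs in Ccl5 cells and 0 in Izumo1r cells. The rows overlapped for Klri2 (19.7 to 43.4 against 0 to 20.3 CPM) and for Klrb1b (2.62 to 23.0 against 3.38 to 10.4 CPM). The αβ T cell markers were lower in Ccl5 cells (3021 to 3268 against 3521 to 4224 CPM), and the part of these markers in the differences between both groups was not tested.

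The other members differed less or unevenly between these cells. Perforin was higher in the Ccl5 cells of 4 of 4 rows, at 66.6, 68.8, 76.8 and 75.5 CPM in Ccl5 cells against 31.3, 38.8, 21.9 and 13.8 CPM in Izumo1r cells, and its log2 ratio of 0.69 to 1.84 fell short of 2-fold in rows 12 and 14. Granzyme B was higher in the Ccl5 cells of 4 of 4 rows, by a log2 ratio of 0.52 to 0.85. At 1.5-fold in every row, 2 members were higher, Gzma and Prf1, beside 0.701% of all genes, and 0 were lower, beside 0.313%. Nkg7 was higher in 4 of 4 rows by 0.18 to 0.60 and Fasl by 0.20 to 0.54 (log2), whereas Ctsw lay between -0.10 and 0.10. Gzmc went opposite ways, with a log2 ratio of -0.40 and -0.29 in rows 12 and 14 and of 3.96 and 4.90 in rows 16 and 18.

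**Figure D2:**
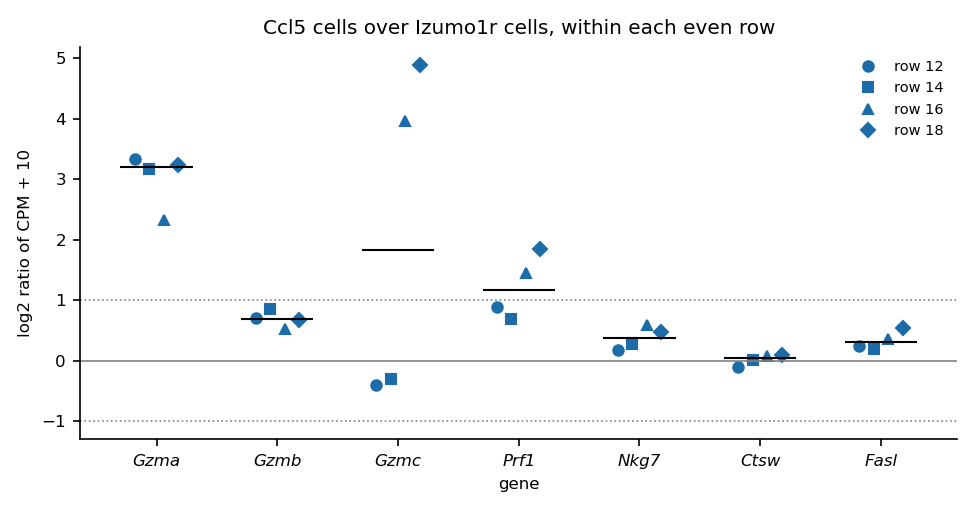
Log2 ratio of CPM + 10 in Ccl5 cells over Izumo1r cells for each member, 1 symbol per even row, with black lines at the median of the 4 rows and dotted lines at 2-fold. Gzma lies above 2-fold in the 4 rows (2.33 to 3.33), while Gzmc splits between rows 12 and 14 and rows 16 and 18.

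Few cells carried the granzyme A transcripts of the Ccl5 group. A Gzma UMI was seen in 88 of 380, 96 of 409, 16 of 91 and 49 of 171 Ccl5 cells of rows 12, 14, 16 and 18. The 10 cells highest in Gzma held 193 of 415, 226 of 520, 69 of 75 and 182 of 263 of its UMIs. Without those cells, which were taken out of the Ccl5 group alone, Gzma was at 166, 199, 17.04 and 121 CPM, so that in row 16 the Ccl5 cells other than these 10 lay below the Izumo1r cells.

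After each cell was thinned to 2000 UMIs, 18.4% of Ccl5 cells (16.1 to 20.9%) and 4.58% of Izumo1r cells (2.96 to 6.74%) held a Gzma UMI, against 3.03% of the Cd79a cells of the odd rows (1.95 to 4.47%), which should lack it. The unthinned shares were 23.7%, 9.67% and 7.16%, at median depths of 3533, 3783.5 and 6002.5 UMIs. The interval of the Izumo1r share overlapped that of the Cd79a cells, so these thinned shares do not tell the Izumo1r cells apart from background. The Gzma level was 20.8 to 30.1 CPM in the Izumo1r cells. In the Cd79a cells it was 9.77 to 17.2 CPM in rows 11, 13 and 15 and 133 CPM in row 17, where 3 cells held its UMIs. Granzyme B was seen in 42.9% of thinned Ccl5 cells, 25.4% of Izumo1r cells and 1.26% of Cd79a cells (unthinned 55.7%, 34.6% and 4.20%). Perforin was seen in 13.2%, 4.77% and 1.39% (unthinned 23.5%, 8.55% and 4.57%), and Fas ligand in 22.2%, 19.1% and 1.13% (unthinned 37.9%, 31.2% and 2.47%). Nearly all even-row cells carried the other members, with Nkg7 in 96.8% of Ccl5 and 86.3% of Izumo1r cells and Ctsw in 87.5% and 86.6%, against 6.68% and 6.18% of Cd79a cells (unthinned 99.0%, 93.7%, 97.6%, 96.5%, 17.8% and 16.8%). Gzmc was seen in 2.60% of thinned Ccl5 cells and 2.48% of Izumo1r cells and in 0 of 793 thinned Cd79a cells, which allows a share of up to 0.378% (unthinned 4.76%, 5.39% and 0 of 810). Counted together, 4 or more members were found in 24.0% of thinned Ccl5 cells (21.4 to 26.7%), 8.397% of Izumo1r cells (6.17 to 11.1%) and 15.5% of the others (14.3 to 16.7%).

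Over the whole range of Ccl5, granzyme A was highest in the cells with most Ccl5. Pooled over the even rows, cells with 0, 1, 2 to 3, 4 to 7 and 8 or more Ccl5 UMIs held 75.0, 110.3, 96.7, 167 and 404 CPM of Gzma. Within rows 12, 14, 16 and 18 it was 53.7, 70.0, 57.2 and 113 CPM without Ccl5 and 345, 442, 248 and 527 CPM at 8 or more UMIs. The classes between were not in order in every row, since row 16 held 224 CPM at 1 and 119 CPM at 4 to 7 Ccl5 UMIs. Their median depth moved little, from 3312.5 to 3559.5 UMIs. Perforin ran from 49.6 CPM without Ccl5 to 73.9 CPM at 8 or more, and Nkg7 from 1462 to 1813 CPM. Granzyme B was 365 CPM without Ccl5 and 400 to 417 CPM with it (399.8 CPM at 1 UMI) when pooled, but went from 246 to 352 and from 299 to 416 CPM in rows 12 and 14 and from 475 to 419 CPM in row 16. Cathepsin W stayed at 1126 to 1188 CPM and Fas ligand at 116 to 135 CPM. Gzmc went from 44.6 CPM without Ccl5 to 277 CPM at 8 or more Ccl5 UMIs, a larger ratio than that of Gzma, but in rows 12 and 14 it was at 6.54 and 8.16 CPM in the highest class, and 763 of its 814 UMIs in the Ccl5 group sat in 9 cells.

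**Figure D3:**
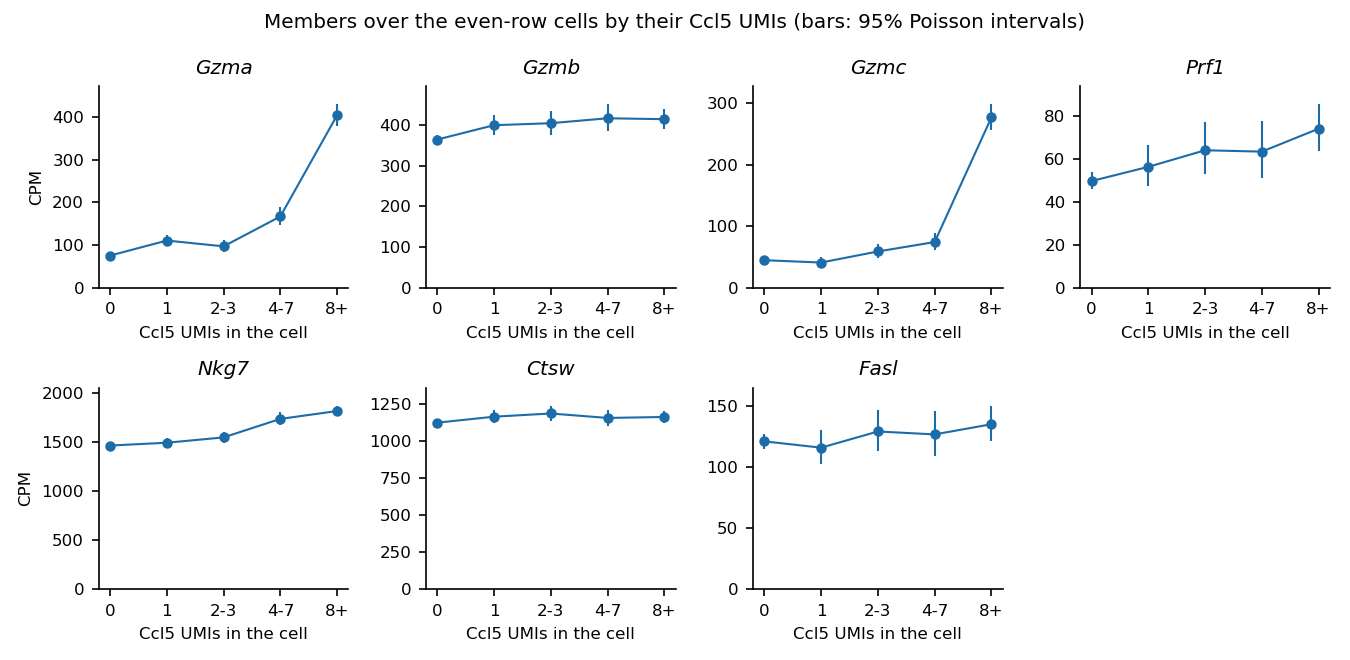
Level (CPM, axes from 0) of each member in the cells of the 4 even rows, pooled, by the number of Ccl5 UMIs in the cell, with 95% Poisson intervals. Gzma runs from 75.0 to 404 CPM, mostly over the last 2 classes, while Ctsw stays at 1126 to 1188 CPM.

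The granzyme C transcripts sat in very few cells. Of the 5758 even-row cells, 25 had at least 5 Gzmc UMIs, and they held 1313 of its 1565 UMIs (83.9%). The highest cell held 382 UMIs. Rows 12, 14, 16 and 18 had 1, 3, 8 and 13 such cells, which is 0.0571%, 0.139%, 1.39% and 1.03% of their cells. Without these cells, Gzmc was at 6.45, 9.32, 20.95 and 20.5 CPM in the 4 rows, so rows 16 and 18 stayed the higher pair at a far smaller distance. The 25 cells fell into the Ccl5 group (9), the Izumo1r group (1) and the others (15), and their median depth was 5105 UMIs against 3395 in the other even-row cells. In the odd rows, 17 of the 30 Gzmc UMIs were in 1 Cst3 cell of row 11.

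The 25 cells were picked by Gzmc, so what else they expressed is given as a description. Tyrobp, a signalling adaptor of NK receptors, was at 1505 CPM (1302 to 1731) against 68.5 CPM in the other even-row cells, and Ncr1, the receptor NKp46, at 192 CPM (124 to 283) against 3.63 CPM. Klrb1b was likewise higher (69.1 against 7.51 CPM), but of the other NK and ILC1 markers Klre1 was at 84.5 against 147 CPM, Klri2 at 7.68 against 29.5 CPM and Eomes had 0 UMIs, where 3 UMIs are worth 23.0 CPM, against 1.03 CPM. The T cell receptor genes Cd3e (660.5 against 1352 CPM), Cd3g (653 against 1255 CPM) and Trac (69.1 against 200.1 CPM) were lower but not absent. Trbc1 was lower too (23.0 against 104 CPM), while the interval of Trbc2 (265 to 480 CPM) held the level of the other cells, 455 CPM. Trav11 had 2 UMIs, and its interval (1.86 to 55.5 CPM) held their 48.5 CPM. Of the other stage 3 iNKT1 markers, Klrb1c was lower (292 against 409 CPM). The intervals of Tbx21 (143 to 311 CPM), Il2rb (785 to 1127 CPM) and Zbtb16 (12.5 to 89.6 CPM) held the other cells' 198, 877 and 71.7 CPM. Xcl1, a chemokine, was at 1966 against 275 CPM and Il2ra, the high-affinity IL-2 receptor chain, at 131 against 10.9 CPM, both chosen after their values were seen. Among the members, Fasl was lower in these cells (46.1 CPM, 16.9 to 100.3, against 124 CPM), Ctsw higher (1797 CPM, 1574 to 2043, against 1139 CPM), and the intervals for Prf1 (36.8 to 141 CPM) and Gzma (112 to 265 CPM) held the level of the other cells, 55.4 and 128 CPM. A Gzma UMI was found in 2 and a Gzmb UMI in 14 of the 25 cells. Whether these cells are iNKT cells was not tested.

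In the odd rows, granzyme A was highest in the Rag1 cells, in which perforin was not seen. The Rag1 cells, named for the recombinase of immature lymphocytes, held 395, 553, 489.8 and 597 CPM of Gzma in rows 11, 13, 15 and 17. The unmatched rest held 151, 356, 313 and 541 CPM, the Ikzf2 cells 83.1, 207, 162 and 307 CPM, the Cst3 cells 24.3, 94.4, 93.5 and 124 CPM and the Cd79a cells 9.77, 17.2, 10.9 and 133 CPM. Rag1 cells lay above the rest within 4 of 4 rows, by a median log2 ratio of 0.63, although the ranges over rows overlapped. Without Rag1, which chose the cells, the DP thymocyte markers summed to 1481 to 1825 CPM in Rag1 cells and 896 to 1217 CPM in the rest, and the γδ T cell markers to 253 to 297 against 505 to 817 CPM. The part of these markers in the Gzma difference was not tested. Perforin was not seen in any of the 418 Rag1 cells, which allows a share of cells with a UMI of up to 0.771% in the 389 deep enough for thinning. Fas ligand had 2 UMIs there, granzyme C 1 UMI and granzyme B 20 UMIs (1.90 to 6.63 CPM over the rows). Nkg7 was at 16.6 to 47.6 CPM and Ctsw at 9.22 to 14.2 CPM in Rag1 cells. Against the Cd79a cells, which should not make them, Nkg7 overlapped (23.0 to 30.5 CPM) and Ctsw was lower (18.4 to 35.8 CPM in Cd79a cells).

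**Figure D4:**
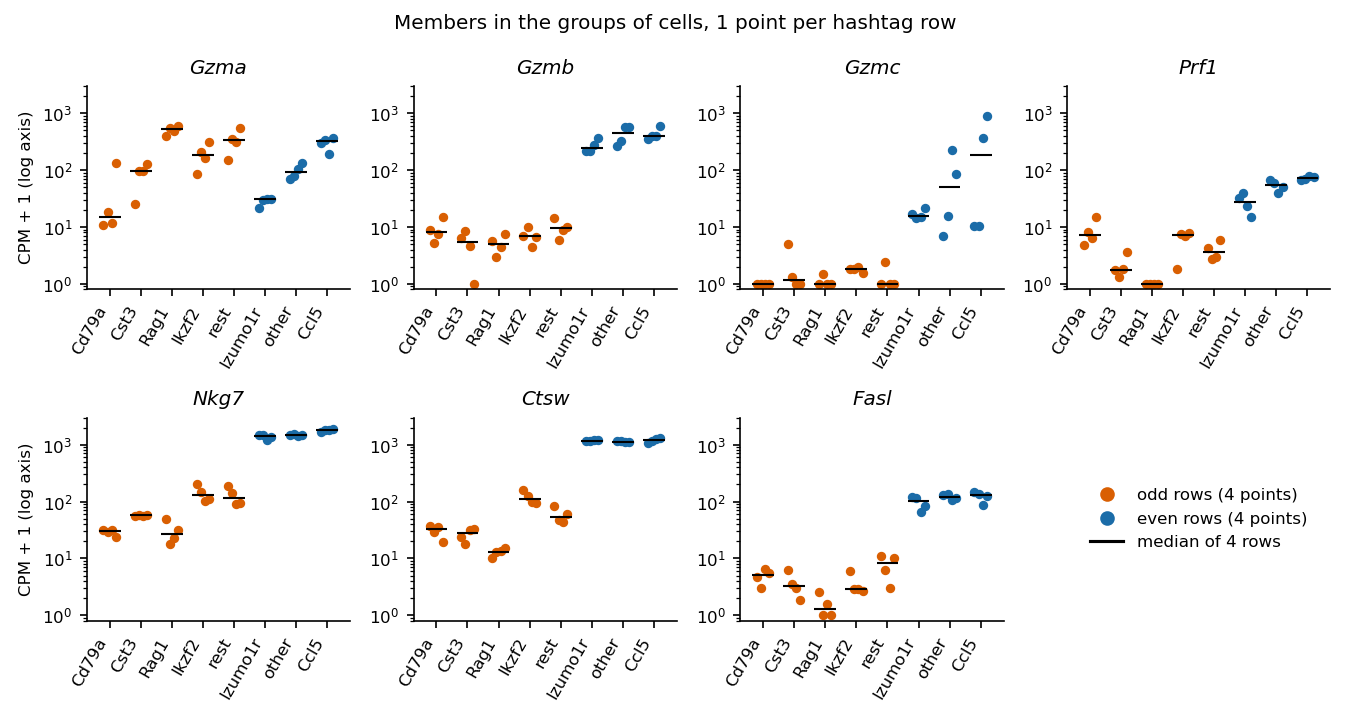
Level (CPM + 1, log axis) of each member in the groups of cells, 1 point per hashtag row and a black line at the median of the 4 rows. In Rag1 cells Gzma reaches 395 to 597 CPM while Prf1 is at 0, and the even-row groups lie above the odd-row groups for the other 6 members.

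After thinning, 46.5% of Rag1 cells (41.5 to 51.6%) held a Gzma UMI, against 22.6% of the rest (19.8 to 25.6%), 11.7% of Ikzf2 cells (9.80 to 13.8%), 5.36% of Cst3 cells (4.03 to 6.97%) and 3.03% of Cd79a cells. The unthinned shares were 72.5%, 33.4%, 20.3%, 12.8% and 7.16% at median depths of 13561.5, 4159, 5517.5, 10487 and 6002.5 UMIs. The shares in the Rag1, Ikzf2 and remaining cells thus lay above that of Cd79a cells at equal depth.

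Within each of these 3 groups, granzyme A was higher in cells with more UMIs. Rag1 cells below 4000, from 4000 to below 8000, from 8000 to below 16000 and from 16000 UMIs held 116, 296, 461 and 588 CPM. The rest of the odd-row cells held 76.7, 215, 371 and 451 CPM in the same classes, and Ikzf2 cells 42.4, 49.8, 219 and 364 CPM. The intervals of neighbouring classes of a group did not overlap, except for the lowest 2 classes of the Ikzf2 cells. Row 11, with the lowest Gzma level in Rag1 cells, also had the lowest median depth of them, 3684.5 UMIs against up to 15274 in another row. The part of depth in the difference between the rows was not tested.

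The 232 Rag1 cells with at least 3 Gzma UMIs differed from the 115 without any in depth, at a median of 18242.5 against 3451 UMIs, and in some markers of thymocyte stages. Cd4 was at 4.89 against 130.3 CPM and Cd8a at 67.5 against 429.7 CPM, the coreceptors that mark double-positive thymocytes. Trac was at 12.8 against 70.4 CPM, while Dntt, the enzyme that adds bases at receptor joints, was alike at 771 and 782 CPM. Trbc1 (356 and 366 CPM) and Ptcra (117 and 127 CPM) were alike as well. Trdc, the constant segment of the δ chain, was at 178 (166 to 191) against 81.0 CPM (59.3 to 108). The intervals of Tcrg-C1, of the γ chain, overlapped (26.5 to 37.4 and 13.5 to 41.4 CPM). The dividing-cell genes Mki67 (639 against 1196 CPM) and Top2a (655 against 893 CPM) were lower. Mcm3 (310 against 289 CPM) and Mcm5 (276 against 240 CPM), of the same list, were not, and their intervals overlapped. Of the other members, Nkg7 was at 12.8 against 111 CPM and Ctsw at 7.91 against 51.1 CPM in these cells, and neither set of cells held a Prf1 UMI. The cells were sorted here by Gzma, so these values describe them without a test.

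**Figure D5:**
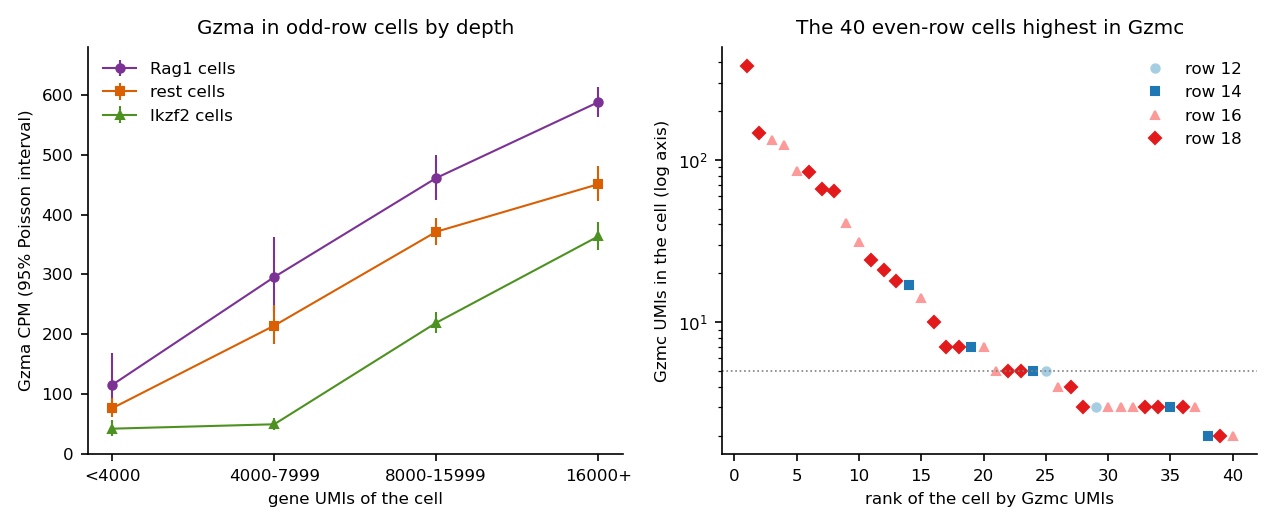
Left, Gzma (CPM, 95% Poisson intervals) in 3 groups of odd-row cells by the gene UMIs of the cell, reaching 588 CPM in the deepest Rag1 cells. Right, Gzmc UMIs (log axis) in the 40 even-row cells highest in it, ranked and marked by row, with a dotted line at 5 UMIs; the highest cell holds 382.

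The Ikzf2 cells of the odd rows, named for the factor Helios, were less than 2-fold from the rest in at least 1 row for each member measured. Only 3 of the 7 members reached 10 CPM over both groups, and 0 of the 3 were 2-fold apart in every row, beside 0.71% of 8586 genes that were higher and 0.0116% that were lower. Cathepsin W was higher in Ikzf2 cells in 4 of 4 rows, at 160.2, 122, 96.0 and 91.4 CPM against 82.1, 46.0, 43.2 and 59.1 CPM, with a log2 ratio of 0.55 to 1.24. Granzyme A was lower in 4 of 4 rows by a log2 ratio of -0.91 to -0.75. At 1.5-fold in every row 1 member, Gzma, was lower, beside 0.384% of genes, and 0 were higher, beside 1.72%. The median ratio of Gzma of -0.80 became -0.20 when Ikzf2 cells needed at least 1 Ikzf2 UMI. For Nkg7 the log2 ratio of 0.08 to 0.19 was small, and its median turned from 0.13 to -0.025 among cells with at most 4000 genes and to -0.093 after thinning. The stage 3 iNKT1 markers summed to 197 to 253 CPM in Ikzf2 cells and 42.1 to 74.1 CPM in the rest. The sum does not speak for each of these markers. Tbx21 did not reach 10 CPM over both groups, and its log2 ratio was -0.14 to 0.41, with a median of 0.05. Markers of DP thymocytes (476 to 547 against 896 to 1217 CPM) and γδ T cells (238 to 474 against 505 to 817 CPM) were lower in Ikzf2 cells without overlap, and the part of these markers in the Gzma and Ctsw differences was not tested.

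The odd-row levels were small beside those of the even rows for most members, by an extent that differed between members. As a percentage of its level over all even-row cells, the level in Cd79a cells was 1.67% for Gzmb, 1.87% for Nkg7, 2.66% for Fasl and 2.71% for Ctsw, but 11.2% for Prf1 and 16.9% for Gzma, which was 10.5% without row 17, where 3 cells held its 58 UMIs. In Ikzf2 cells it was 1.71% for Gzmb and 1.90% for Fasl, but 8.88% for Nkg7, 10.0% for Ctsw and 10.1% for Prf1. In Rag1 cells it was 0% for Prf1, 0.938% for Gzmb, 1.07% for Ctsw and 1.59% for Nkg7, against 407% for Gzma. Prf1 had 40 UMIs in Cd79a cells and 48 in Ikzf2 cells. Free RNA was not removed from these counts, and its part in these levels was not tested.

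Cell by cell, granzyme A kept different company in the even and odd rows. Over thinned even-row cells, a Gzmb UMI was seen in 43.5% of cells with Gzma and 37.5% of those without, higher in 4 of 4 rows. Gzmb was also seen more often with Prf1 than without (45.4% against 37.3%), again in 4 of 4 rows, and more often with Nkg7 than without (39.1% against 25.6%). For Ctsw the pooled shares of cells with Gzmb were alike, at 38.1% with and 38.3% without, although higher with Ctsw in 3 of 4 rows. With and without Gzma, the even-row shares were 94.2% and 92.7% for Nkg7, higher in 4 of 4 rows, and 88.2% and 87.3% for Ctsw, higher in 2 of 4 rows. In odd rows Nkg7 was seen in 7.94% of cells with Gzma and 14.4% of those without, and Ctsw in 4.76% and 12.2%. Both were lower with Gzma in 4 of 4 rows. The odd rows pool unlike groups of cells that differ in these 3 genes, and the part of this mix was not tested. Nkg7 and Ctsw were seen together in odd rows, with Nkg7 in 30.7% of cells with Ctsw and 11.4% of those without.

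The members were also compared over the 32 combinations of row and group of cells, which share 1 library and differ in depth. All members but Gzma were already far higher in even than in odd rows, so r here largely restates that split. It does not show how the members vary together within the even rows. Pearson's r of log2(CPM + 10) was 0.98 for Nkg7 with Ctsw, 0.98 for Gzmb with Fasl, 0.93 for Gzmb with Prf1 and 0.94 for Prf1 with Fasl. Gzma had r between -0.19 and 0.03 with the other 6. Among 11022 genes, those most like Gzmb were Il18r1, Il18rap and Klrc2 (r = 0.99 each), those most like Fasl were Ifitm10, Zfp683 and Cxcr6 (0.99 each) and those most like Prf1 were Kcnj8, Styk1 and Cxcr6 (0.97, 0.96 and 0.96). Nkg7 was most like Il7r, Rinl and Ctsw and Ctsw most like Ms4a4b, Nkg7 and Apol7e, at r of 0.98 to 0.99. Gzmc was most like Ncr1, Elovl7 and Cdc42ep1 (0.93, 0.91 and 0.90). The genes most like Gzma were Noa1, AI506816 and Rpl23a (0.85 each), none of which is known for cytotoxicity.

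The wider pathway was read from 43 further genes in 6 lists. Of the 7 other granzymes, Gzmd, Gzme, Gzmf, Gzmg and Gzmn had 0 UMIs in the 10007 cells, where 3 UMIs are worth 0.0508 CPM, Gzmk had 9 UMIs and Gzmm 13. Over all lists, 31 of the 43 genes passed 10 CPM, of which 14 lay above in the even rows and 9 below, beside the 25.3% and 35.6% of all genes. No list gene was 2-fold apart in every row between Ccl5 and Izumo1r cells (0 of 27 past the filter, and 0 of 24 between Ikzf2 cells and the rest).

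Among the 7 genes of granule processing and matrix, 3 lay above and 2 below in even rows. Srgn, the proteoglycan core that holds granzymes in the granule, was at 689.9 to 894 CPM in even and 426 to 566 CPM in odd rows. Ctsd, an aspartic protease of lysosomes, was at 699.5 to 801 against 92.9 to 112 CPM and Cst7, the inhibitor cystatin F, at 147 to 178 against 21.5 to 35.3 CPM. Ctsl (4.10 to 6.77 against 23.6 to 39.8 CPM) and Calr (197 to 252 against 268 to 332 CPM) lay below. Ctsc, which activates granzymes by removing their propeptide, overlapped at 95.1 to 115 and 73.5 to 107 CPM, as did Ctsb at 145 to 176 and 120.0 to 194 CPM.

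Of the 5 protease inhibitors, Serpinb9, which blocks granzyme B in the cell that makes it, lay above at 52.3 to 85.8 against 8.99 to 22.1 CPM. Serpinb6b lay above at 81.6 to 94.6 against 20.5 to 33.9 CPM, whereas Serpina3g lay below at 14.9 to 17.9 against 18.5 to 44.2 CPM. Among the 11 genes of the granule membrane and its release, Unc13d (72.3 to 81.3 against 30.8 to 37.0 CPM) and Rab27a (47.2 to 48.6 against 24.5 to 38.1 CPM), which prime and dock granules, lay above. Lamp1 (76.6 to 95.3 against 127 to 163 CPM), Lamp2, Cd63, Ap3b1 and Vamp7 lay below, and Vamp8 overlapped at 160 to 184 and 130.2 to 183 CPM. Cd63 was nearly missing from the even rows, at 0.137 to 3.07 against 9.38 to 34.3 CPM.

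Of the 5 death ligands and receptors, Tnfsf10 (TRAIL) and Tnf lay above, at 41.6 to 49.7 against 8.31 to 10.3 CPM and 29.9 to 50.1 against 7.29 to 13.3 CPM, while Fas, the receptor of Fas ligand, overlapped at 20.2 to 29.9 and 18.6 to 24.2 CPM. Of the 8 transcription factors of cytotoxic genes, 5 lay above, namely Tbx21 (168 to 216 against 2.78 to 5.14 CPM), Id2 (955 to 1036 against 125 to 297 CPM), Runx3 (173 to 199 against 46.8 to 75.0 CPM), Stat4 (76.6 to 91.8 against 15.6 to 20.0 CPM) and Bhlhe40 (68.8 to 87.9 against 17.96 to 42.2 CPM). Zeb2 lay below at 4.13 to 6.19 against 27.7 to 44.6 CPM. Eomes, the T-box factor of NK cells, was at 0.137 to 3.30 and 1.02 to 3.22 CPM, so that of the T-box factors read here Tbx21 alone passed the filter.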

How the data were processed

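The authors sequenced the pooled 10x 5′ mRNA and hashtag libraries and, per the labels and the study's methods, aligned and counted them with Cell Ranger 6.0.0 against mm10. They deposited 1 matrix of raw UMI counts with 32285 genes and 20 hashtag rows in 16179 barcodes. The deposited matrix was used unchanged, and free RNA was not removed. Of the hashtag UMIs, 34861260 of 34886859 were on rows 11 to 18. Of 12147 barcodes past the filters on genes and mitochondrial UMIs, 2140 were not on 1 row, which removes doublets of different hashtags. No doublet caller was run, and a limit of 4000 genes was tried as an alternative.

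Counts were summed per row and group of cells. A gene with at least 10 CPM over both groups was called when log2(CPM + 10) differed by 2-fold or more in 1 direction in every row with at least 20 cells in both groups. Beside the fold, rows or groups were compared by non-overlap, with no test, because no row could be tied to a population. Shares of cells used cells thinned to 2000 UMIs (seed 1), of which 768 in all groups were too shallow. Scripts were tested on simulated data and run in Python 3.11.15 with numpy 2.4.6, scipy 1.17.1, pandas 2.3.3 and matplotlib 3.10.9.

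The text names the 7 members, the list genes that passed a call or reached 100 CPM in a group, and the 3 genes most like each member by Pearson's r. The lists covered other granzymes, granule processing and matrix, protease inhibitors, granule membrane and exocytosis, death ligands and receptors, transcription factors of cytotoxic genes, and markers of cell types. The members and lists were chosen with earlier results of these data known. Gene positions are from GENCODE M21 and promoters from RefSeq, both of the same build as the counts.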

Additional observations from a re-analysis of the deposited data

Results flagged for a closer look

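In 84 sets of 4 row values, a single row stood far from the other 3 in 8 sets by the gap between neighbouring values (Dixon's ratio). Chance gives about 1 in 20 among replicates, which the rows are not, so these sets are a description. Gzma was at 20.8 CPM (8 UMIs) in the Izumo1r cells of row 12, below the other even rows. Its log2 ratio of Ccl5 to Izumo1r cells was 2.33 in row 16, below the other 3. In the Cd79a cells of row 17 Gzma was at 133 CPM, above the other odd rows, and its 58 UMIs were in 3 of 58 cells with 35, 19 and 4. Gzmc was at 4.06 CPM in the Cst3 cells of row 11, where 1 cell held 17 UMIs, at 0.475 CPM in the Rag1 cells of row 13 (1 UMI) and at 1.40 CPM in the unmatched cells of row 13 (4 UMIs), where the other odd rows held 0. In the Ikzf2 cells of row 11, Prf1 was below the other odd rows at 0.848 CPM (1 UMI). Fasl was above them at 5.09 CPM (6 UMIs), and both intervals overlapped those of the other odd rows.

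The 6172 barcodes left out of the comparisons also held the members, with a summed level of 1341 CPM from 35729 UMIs, of which Nkg7 gave 13634 and Gzma 4616.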

How the results depend on the processing

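No paired analysis was possible because no source used here gives a hashtag row a replicate number. Of 232 values for the counts of members and of genes called, 207 stayed within 1.5 times of the reported value, 25 moved beyond it and 0 reversed. Some settings could not move a value, so this tally and the next overstate how stable the values were. Leaving out an odd row cannot move a comparison within even rows, nor the reverse. The CPM filters and the 1.5-fold limit cannot move a log2 ratio. Of 406 log2 ratios of single members, 384 moved by less than the spread over rows, 20 moved more and 2 were labelled as reversed. These 2 were Nkg7 in Ikzf2 cells over the rest, at -0.025 with at most 4000 genes and -0.093 in cells thinned to 2000 UMIs. The ratio of Gzmc between Ccl5 and Izumo1r cells also changed sign, from 1.83 to -0.29 without row 16 or row 18. Its spread over rows was wider than that change, so it is counted among the 384. The count of 6 members above in the even rows was the same under each of the 17 settings, while 5346 genes lay below without a filter on low values. At 1.5-fold, 2 members were higher in Ccl5 than in Izumo1r cells, beside 56 genes higher and 25 lower, and 1 member, Gzma, was lower in Ikzf2 cells than in the rest, beside 148 genes higher and 33 lower. The genes lower in Ccl5 cells numbered 3 with at least 2 and 8 with at least 8 Ccl5 UMIs, 1 with at least 1 Izumo1r UMI (10 were then higher), and 5 to 10 with a row left out. The genes lower in Ikzf2 cells numbered 2 with at least 90% of hashtag UMIs on 1 row, 6 when the limits were 500 genes and 10% mitochondrial UMIs, 32 with at most 4000 genes, 2 without ribosomal and Gm genes, 13 for the mean CPM of cells, 12 after thinning, 5 with at least 1 Ikzf2 UMI and 1 to 6 with a row left out. The cause of these changes was not tested. Over the 21 settings the log2 ratio of Gzma between Ccl5 and Izumo1r cells ran from 2.65 to 3.53 and that of Gzmc from -0.29 to 3.96. Depth limits Gzmc, Prf1 and Fasl in the odd rows, which held 30, 115 and 122 UMIs of them.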
